A study of Mus musculus with 24 samples.

Results

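The genes described here make melanin and build, move and size the melanosome, the organelle that holds it, in the retinal pigment epithelium (RPE) of the mouse eye. They were chosen by name, as a list of 35 genes, without a cutoff on a measured value but with earlier results of these data known. A row was found by symbol for 34 of them, and these 34 were all among the 20275 genes tested, of 54232 gene identifiers in the count table. The name Melreg matched no symbol. Values of Mreg, the melanoregulin gene, are given apart from the counts of members.

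RNA was sequenced from laser-microdissected RPE of 6-week-old male mice of strain C57BL/6/J x 129 SvEvBrd in both genotypes. Mice were wild type or carried the genotype labelled Per1-/-Per2Brdm1, which alters the circadian clock genes Per1 and Per2 and is called knockout here after its label, KO. Eyes were collected at circadian time (CT, hours of the internal day) CT19, CT22, CT1 and CT10, and the series asks how the clock genes relate to the daily rhythm of outer segment uptake by the RPE. This gave 8 groups of 3 libraries, 24 in all, of which 5 were pools of 2 eyes, 4 of them knockout and 1 wild type. Replicates are named by the number in their label, with pools under joined numbers such as 3and5. Whether each library came from its own animal is not in the labels, and the p-values therefore measure spread between libraries only. In bulk RNA, fewer cells of a type and less RNA per cell cannot be told apart.

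Melanin is made from tyrosine inside the melanosome. Tyrosinase starts the pathway, and the related enzymes encoded by Tyrp1 and Dct modify its later products toward eumelanin. The pigment is laid down on amyloid fibrils of the protein encoded by Pmel. Cargo reaches the maturing organelle through the sorting complexes AP-3, BLOC-1, BLOC-2 and BLOC-3, whose loss causes the pale coat and eye of Hermansky-Pudlak mouse models. In the RPE, melanosomes form mostly before and around birth, persist through life, and move on actin with motor proteins of the myosin family. Melanocytes of the choroid, the vessel layer just behind the RPE, use many of the same genes.

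Libraries held 16245067 to 32066263 counts. Libraries of 1 group were not copies of each other: the smallest chi-square between their counts, divided by its degrees of freedom, was 32.4. The order of Per1 and Per2 between genotypes depended on the time. At CT19 Per1 ran from 41.3 to 52.5 CPM (counts scaled to the library's size) in wild-type libraries and from 101 to 164 CPM in those of the knockout. Per2 ran from 22.2 to 30.9 CPM and from 75.4 to 127.1 CPM. Both genes were likewise higher in all knockout libraries at CT22 and CT1. At CT10 the genotypes overlapped: Per1 held 91.1 to 186 CPM without and 76.9 to 117.7 CPM with the altered alleles, and Per2 held 92.3 to 160.3 CPM and 93.1 to 103 CPM. Counts over the whole gene do not show which part was altered, so this neither checks nor contradicts the labels. RPE identity genes such as Rpe65 were abundant, and the 12 RPE markers summed to 35793 to 69618 CPM per library. Rod photoreceptor markers were present as well. Their sum over 12 genes at CT1 was 54884 to 77863 CPM in wild-type libraries against 23282 to 28713 CPM in the knockout. At CT22 it was 15529.8 to 35328 CPM against 26925 to 89447 CPM. The part of rod RNA in a member's difference was not tested beyond the fits named beside the results.

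Levels between genes were compared as CPM per kilobase of exon. Dct, which encodes dopachrome tautomerase, had the highest mean level of the 34 members, 415 CPM per kilobase. Pmel, the fibril protein, and Tyrp1 followed at 177 and 175, then Mlana, a melanosome membrane protein that assists Pmel, at 106. Rab27a, the GTPase that tethers melanosomes for transport, stood at 104, ahead of the ion exchanger gene Slc24a5 at 91.5 and the myosin linker gene Myrip at 67.6. Oca2, Tyr and Gpr143 came next at 43.8, 40.8 and 26.6 CPM per kilobase. Of the sorting-complex genes Ap3d1 was highest, at 25.7 CPM per kilobase, and the BLOC subunit genes other than Hps4 and Dtnbp1 lay between 1.69 and 7.55 CPM per kilobase. Slc7a11, a cystine transporter gene that supplies pheomelanin synthesis in hair, was lowest at 0.0911 CPM per kilobase. By this scale Dct exceeded 99.7% of tested genes and Slc7a11 exceeded 5.19%. Dct was first of the 34 in 24 of 24 libraries, while the order below it changed between libraries, with Pmel, which ran from 174 to 1299 CPM, between rank 2 and rank 6.

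No member passed an adjusted p of 0.05 in the genotype difference averaged over the 4 times, by the quasi-likelihood test of edgeR with Benjamini-Hochberg adjustment over all tested genes, or by DESeq2. At an unadjusted p under 0.05 there were 3 of 34, 1 higher and 2 lower in knockout. Over all tested genes, 0.375% passed the adjusted and 7.07% the unadjusted threshold, and DESeq2 called 0.942% of the genes for which it gave an adjusted p. The members' median log2 difference (knockout minus wild type) was -0.06, beside 0.02 for all tested genes.

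The direction of the members' differences was not the same at each time. At CT19 the median log2 difference of the 34 members was -0.27, beside -0.01 for all tested genes, and 26 members were below 0. At CT22 it was -0.12, beside 0.03. At CT1 and CT10 the members' medians were 0.11 and 0.21, beside -0.01 and 0.09. Scaling by DESeq2's size factors lowered the CT10 median of all tested genes from 0.09 to -0.01 and that of the members from 0.21 to 0.11. No member passed the adjusted threshold at any single time by edgeR.

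At CT19, 6 of 34 members had an unadjusted p under 0.05, all lower in knockout, while 3.47% of all tested genes did in either direction. The adjusted threshold was met by 0.0691% of all tested genes at this time. DESeq2 called 2 members at CT19, Mlana and Pmel, beside 0.19% of all genes with an adjusted p in that tool. All 3 knockout libraries lay below all 3 wild-type libraries for 7 members and above them for 0, beside 5.31% and 3.96% of all tested genes. Slc7a11, which was near 0 counts, is among both the 6 and the 7.

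At CT22, 5 members had an unadjusted p under 0.05, 2 higher and 3 lower, beside 12.7% of all tested genes, and 0.227% of those passed after adjustment. DESeq2 called 0 members there, beside 2.37% of all genes. Knockout libraries lay wholly above wild type for 1 member and wholly below for 2, beside 8.01% and 4.79% of all tested genes. At CT1, 4 members had an unadjusted p under 0.05, 2 in each direction, beside 19.5%, with 0.533% of all tested genes passing after adjustment and 0 members called by DESeq2, beside 7.7% of all genes. The knockout libraries were wholly above for 3 members and wholly below for 3, beside 10.1% and 14.6%.

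At CT10, 9 members had an unadjusted p under 0.05, 5 higher and 4 lower in knockout, beside 17.9% of all tested genes. After adjustment 0.0345% of all tested genes passed, and DESeq2 called 2 members, Tyr and Hps4, beside 5.21% of all genes. The knockout libraries lay wholly above wild type for 8 members, Tyr, Tyrp1, Pmel, Oca2, Slc45a2, Slc24a5, Bloc1s6 and Rab27a, beside 17.7% of all tested genes. They lay wholly below for 4, Tpcn2, Hps3, Hps1 and Hps4, beside 12.4%.

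Differences among times within a genotype were tested over the 4 times together. In wild type 0 members passed in edgeR, 7 had an unadjusted p under 0.05 and DESeq2 called 2, Dct and Pmel, beside 8.05% of all genes. Of all tested genes, 0.947% passed after and 19.3% before adjustment. In knockout 0 members passed in edgeR, 5 had an unadjusted p under 0.05 and DESeq2 called 2, Mlph and Myo5a, beside 1.87% of all genes. In edgeR 0% of all tested genes passed after and 11.7% before adjustment. The median log2 range over the times was 0.47 for the members in wild type and 0.44 in knockout, beside 0.72 and 0.63 for all tested genes.

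The genotype difference itself was then compared between times, as an interaction of genotype and time. Of the 34 members 1, Pmel, passed in edgeR, beside 4.62% of all tested genes, and 11 of 34 had an unadjusted p under 0.05, beside 22.3%. DESeq2 called 5, Dct, Hps1, Hps4, Pmel and Tpcn2, beside 16.9% of all genes. No member passed when the rod marker score, the melanocyte marker score or the replicate number was added to the fit, and of all tested genes 30, 9 and 3 then passed in place of 937. Adding the replicate number gave each label, pools included, its own term, so fewer residual degrees of freedom remained than the main fit's 16. The lower count with it therefore does not measure a replicate effect.

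**Figure D1:**
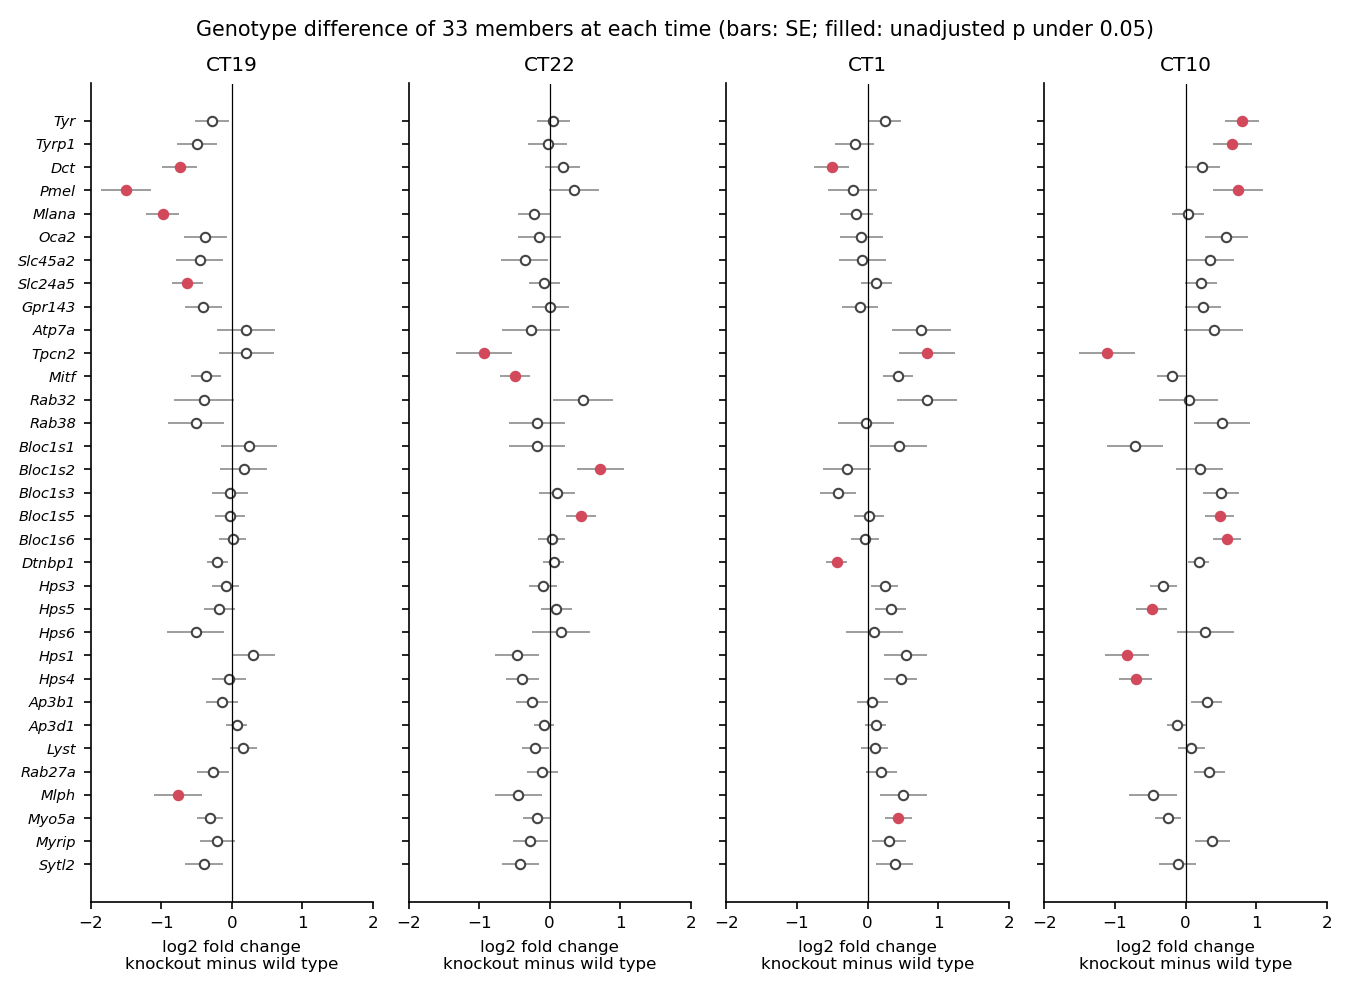
Log2 difference (knockout minus wild type, x axis) with its standard error for 33 members (y axis, ordered by role) at each of the 4 circadian times, with filled points for an unadjusted p under 0.05. At CT19 the filled points all lie left of 0, and at CT10 5 lie to the right, among them Tyr and Tyrp1, and 4 to the left, among them Tpcn2 and Hps4; Slc7a11 is not drawn because it is near 0 counts.

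Tyr, Tyrp1, Dct and Pmel had their highest wild-type mean at CT19 and their lowest at CT10, and in knockout their CT10 means were not below those of CT19. The wild-type log2 ranges over the times were 0.83, 0.92, 0.93 and 1.63 (adjusted p = 0.140, 0.170, 0.109 and 0.0634 by the quasi-likelihood test of edgeR with Benjamini-Hochberg adjustment). Without wild-type CT19 replicate 1 the range of Pmel was 0.85 (adjusted p = 0.220 in the same test), and without CT19 replicate 2 it was 1.86 (adjusted p = 0.0494). The starts of Tyr, Tyrp1 and Dct are shown first, with no window matched for Pmel, because Mitf, the transcription factor of pigment cells, binds the M-box, whose core letters are CATGTG. The sequences are the 250 bases before the RefSeq start site (build GRCm38.p6), written 5′ to 3′ on the gene's strand, with a CATGTG match on either strand in capitals (CACATG is the same site read on the other strand). Tyr lies at chr7:87493513-87493762 on the minus strand, Tyrp1 at chr4:80833963-80834212 on the plus strand and Dct at chr14:118052247-118052496 on the minus strand.
Tyr: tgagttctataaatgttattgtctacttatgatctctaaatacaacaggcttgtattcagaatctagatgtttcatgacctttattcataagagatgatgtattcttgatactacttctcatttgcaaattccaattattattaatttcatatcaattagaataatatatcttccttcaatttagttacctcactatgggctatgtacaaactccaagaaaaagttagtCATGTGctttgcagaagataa
Tyrp1: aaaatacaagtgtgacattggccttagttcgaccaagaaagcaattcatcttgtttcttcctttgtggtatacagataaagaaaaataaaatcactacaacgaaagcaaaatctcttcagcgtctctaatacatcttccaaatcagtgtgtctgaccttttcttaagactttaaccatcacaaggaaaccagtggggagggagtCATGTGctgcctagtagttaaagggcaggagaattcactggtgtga
Dct: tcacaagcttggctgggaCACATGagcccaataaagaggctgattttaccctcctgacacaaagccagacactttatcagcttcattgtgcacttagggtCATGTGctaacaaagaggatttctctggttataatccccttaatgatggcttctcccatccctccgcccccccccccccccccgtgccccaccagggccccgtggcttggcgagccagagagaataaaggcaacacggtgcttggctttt
The first base of the match was 21 bases before the start in Tyr and 46 in Tyrp1, and Dct had matches at 232 and 150 bases. GENCODE M21 places the start of Tyrp1 earlier, at 80834123, and by that start the Tyrp1 match lies inside the gene. A RefSeq window was matched for 27 of the 34 members, 31 windows in all, and 8 of these held CATGTG, beside 12.3% of 32851 windows of the same length. The clock E-box CACGTG, its own reverse complement, was in 7 of the 31 windows, beside 6.02%. A match describes letters only.

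Pmel (ENSMUSG00000025359, chromosome 10, 128704195 to 128720238, plus strand, GRCm38) encodes the protein of the melanosome's fibrils. Wild-type replicates 1, 2 and 4 held 1299, 429 and 472 CPM at CT19, and the CT10 libraries 342, 186 and 183 CPM. Knockout libraries held 338, 174 and 267 CPM at CT19, against 416, 381 and 393 CPM at CT10. The knockout libraries were thus all below wild type at CT19 and all above it at CT10, and wild-type replicate 1 at CT19 stood far above all other libraries. At CT22 and CT1 the genotypes overlapped, with 253 to 506 and 388 to 484 CPM in wild type and 358 to 585 and 306 to 464 CPM in knockout.

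The genotype difference of Pmel changed between times, with log2 values of -1.50 (SE 0.36) at CT19, 0.35 (SE 0.35) at CT22, -0.21 (SE 0.35) at CT1 and 0.74 (SE 0.35) at CT10. Their range was 2.24 (adjusted p = 0.0367 by the quasi-likelihood test of edgeR with Benjamini-Hochberg adjustment). Without wild-type CT19 replicate 1 the range was 1.46 and the adjusted p 0.0826 in the same test, and the CT19 difference was -0.78. The adjusted p over the 24 fits without 1 library ran from 0.0279 to 0.108, and 7 of the 24 passed. It was 0.139 with the melanocyte score, 0.191 with the rod score, 0.0571 with the RPE score, 0.158 with the replicate block, 0.178 without the pooled libraries and 0.00188 in DESeq2. Exons of Cdk2 and Dgka on the other strand cover 1.48% and 4.58% of Pmel's exon length, which matters only if counting ignored strand.

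Dct (ENSMUSG00000022129, chromosome 14, 118012790 to 118052244, minus strand) acts after tyrosinase, on dopachrome. Wild-type libraries held 3691, 3904 and 3500.0 CPM at CT19, against 2102, 2013 and 1711 CPM at CT10. Knockout libraries held 2403, 1580.4 and 2681 CPM at CT19, against 2515, 1994 and 2358 CPM at CT10. Knockout was below wild type without overlap at CT19, with a log2 difference of -0.74 (SE 0.25, adjusted p = 1.0 by edgeR with Benjamini-Hochberg adjustment). At CT1 the wild-type libraries were at 2574, 2453 and 3080.0 CPM and the knockout libraries at 1974, 1561 and 2152 CPM, again without overlap. The range of its wild-type means over the times had an adjusted p of 0.109 in edgeR, 0.0134 in DESeq2 and 0.0434 with the RPE score in the edgeR fit, all with Benjamini-Hochberg adjustment. Over the 24 edgeR fits without 1 library this adjusted p ran from 0.0840 to 0.278, and 0 passed. The knockout means covered a log2 range of 0.44.

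Tyr (ENSMUSG00000004651, chromosome 7, 87424771 to 87493512, minus strand) encodes tyrosinase, the first and rate-limiting enzyme of the pathway. In wild type it was at 306, 343 and 417 CPM at CT19, 294, 274 and 312 CPM at CT22, 263, 240.1 and 224 CPM at CT1, and 193, 227 and 179 CPM at CT10. In knockout it was at 399.7, 197 and 281 CPM at CT19, 289, 235 and 389 CPM at CT22, 344, 311 and 205 CPM at CT1, and 415, 335 and 290.4 CPM at CT10. The wild-type libraries of CT10 were all below those of CT19, CT22 and, except for replicate 2, CT1, whereas the knockout groups overlapped one another. At CT10 all knockout libraries were above all wild-type libraries, by a log2 difference of 0.80 (SE 0.24). Its adjusted p was 0.116 in edgeR, 0.0404 in DESeq2, 0.0300 with the rod score and 0.0418 with the RPE score as a covariate of the edgeR fit, all with Benjamini-Hochberg adjustment. Over the 24 edgeR fits without 1 library the adjusted p ran from 0.0830 to 0.448, and 0 passed. The log2 difference ran from 0.61, without knockout CT10 replicate 2, to 0.85 in these fits. As a share of the summed RPE markers, Tyr was 0.405% to 0.407% in wild type and 0.547% to 0.638% in knockout at CT10.

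Tyrp1 (chromosome 4, 80834123 to 80851719, plus strand) encodes a tyrosinase-related enzyme that also stabilises tyrosinase. Wild type had 637, 615 and 609 CPM at CT19 but 344, 389 and 252 CPM at CT10. Knockout had 671, 243 and 409 CPM at CT19 but 692, 434 and 431 CPM at CT10. At CT1 wild type had 548 to 601 CPM and knockout 491 to 524 CPM, below it without overlap, with a log2 difference of -0.18 (SE 0.28). At CT10 the genotypes did not overlap in the other direction, and the log2 difference was 0.66 (SE 0.28, adjusted p = 0.222 in edgeR with Benjamini-Hochberg adjustment). At CT19 knockout replicate 3and5 was the lowest library of all for Tyrp1, and that library was the lowest of its group for 25 of the 34 members. It also had the second-highest rod marker sum of the 24 libraries, 77892 CPM.

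Mlana (chromosome 19, 29697824 to 29708634, plus strand) encodes a small melanosome membrane protein that binds the Pmel protein. Wild-type libraries were at 130.9, 124.5 and 143 CPM and knockout libraries at 66.1, 54.7 and 81.4 CPM at CT19, without overlap. The log2 difference was -0.98 (SE 0.23), with an adjusted p of 0.198 in edgeR and 0.0486 in DESeq2, both with Benjamini-Hochberg adjustment. At CT10 the libraries overlapped, at 105, 118.7 and 107 CPM in wild type and 105, 122.2 and 111.4 CPM in knockout, with a log2 difference of 0.04 (SE 0.23). Averaged over the 4 times the log2 difference was -0.33 (SE 0.12, adjusted p = 0.427 in edgeR with Benjamini-Hochberg adjustment). Knockout Mlana differed among times over a log2 range of 0.88 (adjusted p = 0.295 in edgeR with Benjamini-Hochberg adjustment), which was 0.73 without CT1 replicate 5.

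**Figure D2:**
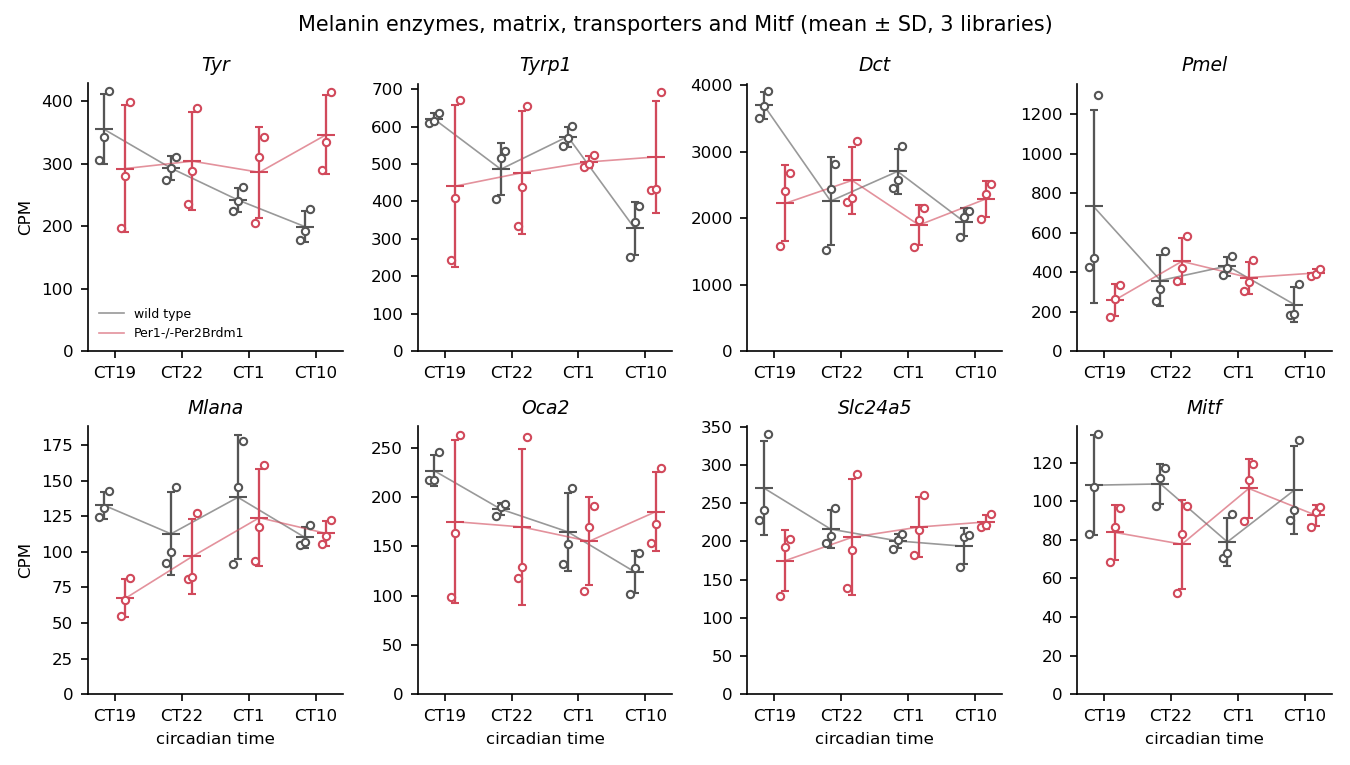
CPM (y axis) of 8 pigment genes in each library at the 4 circadian times (x axis), with grey points for wild type, red for knockout and bars for the mean and SD of 3 libraries. Tyr, Tyrp1 and Dct are lower in wild type at CT10 than at CT19, the knockout means are flatter, and 1 wild-type library of CT19 stands at 1299 CPM for Pmel.

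Summed over these 5 genes, wild-type libraries went from 5141, 5416 and 6065 CPM at CT19 to 2431, 2934 and 3086 CPM at CT10, without overlap. The knockout sums, 2249, 3720 and 3878 CPM at CT19 against 3265, 3585 and 4143 CPM at CT10, overlapped. Relative to the summed RPE markers the 5 genes were at 7.96% to 13.6% in wild type and 5.82% to 6.50% in knockout at CT19. At CT10 these shares were 5.26% to 6.47% and 6.22% to 6.75%, which overlap, so the CT10 gap in CPM did not stand apart on this scale as it did for Tyr.

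The membrane transporters and the receptor set the melanosome's pH, ions and metals. Oca2, an anion channel protein gene that raises melanosome pH, was at 128.02, 143 and 101 CPM in wild type and 229.9, 153 and 173 CPM in knockout at CT10, without overlap (log2 difference 0.58, SE 0.30). Its wild-type values at CT19 were 218, 246 and 218 CPM, and its knockout values 263, 98.9 and 163 CPM. Slc24a5, a potassium-dependent sodium/calcium exchanger gene (chromosome 2, 125068124 to 125088677, plus strand), was at 241, 229 and 340.3 CPM in wild type and 192, 129 and 204 CPM in knockout at CT19. These did not overlap, and the log2 difference was -0.63 (SE 0.22, adjusted p = 1.0 in edgeR with Benjamini-Hochberg adjustment). Exons of Myef2 on the other strand cover 39.5% of the exon length of Slc24a5, so its counts are uncertain where strand was not used.

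Slc45a2, a transporter gene needed for tyrosinase to mature, was at 57.4, 45.5 and 47.2 CPM in wild type and 66.2, 66.1 and 58.8 CPM in knockout at CT10, without overlap (log2 difference 0.35, SE 0.34). Gpr143, the ocular albinism receptor that limits melanosome size, ran from 30.2 to 78.0 CPM over all libraries and had no unadjusted p under 0.05 for genotype at any time. Atp7a, the copper pump that loads tyrosinase, ran from 8.59 to 38.6 CPM, and its largest log2 difference was 0.76 (SE 0.42) at CT1.

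Tpcn2 (chromosome 7, 145186524 to 145284011, minus strand) encodes an endolysosomal cation channel that lowers melanosome pH and pigment content. Wild-type libraries had 13.3, 13.0 and 8.11 CPM at CT22, then 19.4, 13.7 and 8.47 CPM at CT10. Knockout libraries had 7.90, 4.13 and 6.06 CPM at CT22, then 6.76, 7.56 and 4.91 CPM at CT10, below wild type without overlap at both times. At CT1 the order of the means was the other way, with 4.20, 5.74 and 12.9 CPM in wild type and 8.51, 10.7 and 21.8 CPM in knockout, which overlap.

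The log2 differences of Tpcn2 were -0.93 (SE 0.40) at CT22, 0.84 (SE 0.39) at CT1 and -1.11 (SE 0.40) at CT10, and the CT1 value was 0.36 without knockout replicate 5 and 1.45 without wild-type replicate 5. Their adjusted p in edgeR with Benjamini-Hochberg adjustment was 0.316, 0.235 and 0.161. The range of its genotype differences was 1.96 (adjusted p = 0.0646 in edgeR and 0.00907 in DESeq2, with the same adjustment). The adjusted p was 0.360 with the rod score and 0.258 with the melanocyte score added to the edgeR fit.

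Slc7a11 was close to absent. Its counts were 19, 12 and 22 in wild type at CT19 and 0, 0 and 2 in knockout. At CT22 they were 0, 2 and 382 in wild type and 1, 5 and 4 in knockout, so 1 wild-type library, replicate 6, held most of its counts there. At CT1 they were 12, 97 and 0 in wild type and 42, 8 and 64 in knockout, and at CT10 4, 56 and 32 and 6, 34 and 5. It had an unadjusted p under 0.05 in the average, at CT19 and at CT22, and is among the members counted as lower there. A fitted log2 difference from so few counts depends on single libraries and is given only among the alternative values of the processing.

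Mitf (chromosome 6, 97807052 to 98021349, plus strand) encodes the transcription factor that drives the pigment cell program from several start sites. Wild-type libraries were at 111.9, 97.6 and 117.4 CPM and knockout libraries at 97.5, 52.4 and 83.2 CPM at CT22, with the highest knockout library just below the lowest wild-type one. The log2 difference was -0.49 (SE 0.21, adjusted p = 0.326 in edgeR with Benjamini-Hochberg adjustment), and -0.30 without knockout replicate 2, the library with the highest rod marker sum. At CT1 the log2 difference was 0.43 (SE 0.21), with 72.9, 70.4 and 93.3 CPM in wild type and 89.7, 110.99 and 119.1 CPM in knockout, which overlap. The windows before 3 Mitf start sites held no CATGTG or CACGTG. Mitf did not share the wild-type course of the enzyme genes, as its wild-type means were 108, 109, 78.9 and 106 CPM at CT19, CT22, CT1 and CT10.

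Rab32 and Rab38 encode the GTPases that steer tyrosinase and Tyrp1 protein to the melanosome. Both were low, at 4.51 and 8.52 CPM on average, and Rab38 had the higher level per length, 5.40 CPM per kilobase. Rab32 ran from 2.11 to 10.8 CPM and Rab38 from 4.58 to 14.2 CPM. Neither had an unadjusted p under 0.05 for genotype at any time, and the largest log2 difference was 0.84 (SE 0.42) for Rab32 at CT1.

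BLOC-1 sorts cargo from early endosomes to melanosomes. Of its 6 listed subunit genes, 0 passed in any comparison in edgeR or DESeq2. At single times an unadjusted p under 0.05 for genotype was held by Bloc1s2 and Bloc1s5 (CT22), Dtnbp1 (CT1), and Bloc1s5 and Bloc1s6 (CT10). Of all tested genes, 3.47% held one at CT19, 12.7% at CT22, 19.5% at CT1 and 17.9% at CT10. Dtnbp1, the dysbindin gene (chromosome 13, 44922075 to 45002147, minus strand), had the highest level per length of the 6, 16.2 CPM per kilobase. At CT1 it was at 58.5, 72.7 and 70.5 CPM in wild type and 51.4, 47.8 and 49.7 CPM in knockout, without overlap. The log2 difference was -0.44 (SE 0.15, adjusted p = 0.115 in edgeR with Benjamini-Hochberg adjustment).

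Bloc1s6, the pallidin gene (chromosome 2, 122738503 to 122749475, plus strand), was at 22.7, 24.7 and 25.6 CPM in wild type and 40.3, 32.7 and 37.0 CPM in knockout at CT10. These did not overlap, and the log2 difference was 0.59 (SE 0.19, adjusted p = 0.138 in edgeR with Benjamini-Hochberg adjustment). At the other times its log2 differences were between -0.04 and 0.03. Bloc1s5, the muted gene, had a log2 difference averaged over the times of 0.23 (SE 0.10, adjusted p = 0.641 in the same test), with 0.45 at CT22 and 0.48 at CT10 and -0.03 and 0.02 at CT19 and CT1. Bloc1s2 was at 5.28, 8.16 and 4.38 CPM in wild type and 8.47, 12.3 and 8.57 CPM in knockout at CT22, without overlap. Bloc1s3 and Bloc1s1 were at 12.4 and 3.94 CPM on average. Exons of Rdh5, a very abundant RPE gene on the same strand, cover 55.9% of the exon length of Bloc1s1, so its counts are uncertain.

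BLOC-3 activates Rab32 and Rab38, and its subunits are encoded by Hps1 and Hps4. Hps4 (chromosome 5, 112343083 to 112378414, plus strand) was at 61.5, 53.8 and 70.2 CPM in wild type and 92.7, 78.2 and 85.3 CPM in knockout at CT1. At CT10 it was at 87.0, 76.6 and 79.8 CPM in wild type and 48.3, 54.5 and 46.1 CPM in knockout. Both times were without overlap, with knockout above at CT1 and below at CT10. The log2 differences were 0.47 (SE 0.24) and -0.71 (SE 0.24), and the latter had an adjusted p of 0.143 in edgeR and 0.0437 in DESeq2, both with Benjamini-Hochberg adjustment. The range of the 4 differences was 1.18 (adjusted p = 0.105 in edgeR with Benjamini-Hochberg adjustment).

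Hps1 had the same order at these times. At CT1 it was at 9.30, 9.24 and 7.56 CPM in wild type and 12.4, 11.2 and 14.2 CPM in knockout, and at CT10 at 12.9, 13.3 and 17.1 CPM and 6.32, 8.70 and 9.36 CPM. Neither time overlapped. Its log2 differences were 0.54 (SE 0.31) and -0.83 (SE 0.31), and its range over the 4 times was 1.37 (adjusted p = 0.1103 in edgeR with Benjamini-Hochberg adjustment). The BLOC-3 genes thus had values in the opposite order to Tyr and Tyrp1 at CT10, when the libraries of Dct overlapped between genotypes.

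BLOC-2, made of the proteins of Hps3, Hps5 and Hps6, directs endosomal tubules to melanosomes. Hps5 had the highest level per length of these, 5.51 CPM per kilobase, and was higher in knockout without overlap at CT1 (log2 difference 0.32, SE 0.22). At CT10 its log2 difference was -0.48 (SE 0.22). Hps3 had log2 differences between -0.32 and 0.24, and Hps6 between -0.51 and 0.28, with no unadjusted p under 0.05 for genotype. The AP-3 genes Ap3d1 and Ap3b1, which encode subunits of the adaptor that sorts tyrosinase, differed little. Ap3d1 had 25.7 CPM per kilobase and ranged only from 199.6 to 257 CPM over all 24 libraries, with log2 differences between -0.12 and 0.12. Those of Ap3b1 lay between -0.25 and 0.30. Lyst, whose loss gives the giant melanosomes of the beige mouse, had 2.45 CPM per kilobase and log2 differences between -0.20 and 0.16.

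**Figure D3:**
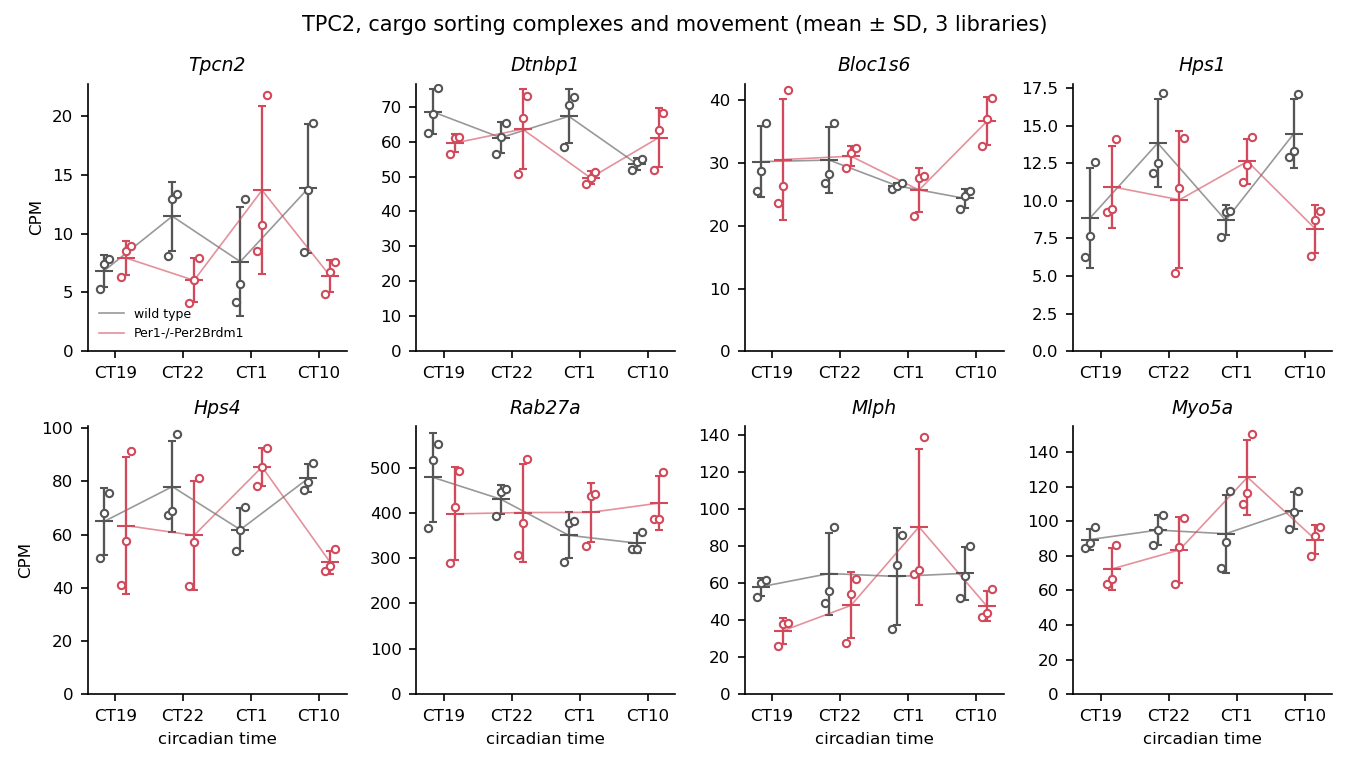
CPM (y axis) of 8 genes of melanosome ion balance, sorting and movement in each library at the 4 circadian times (x axis), with grey points for wild type, red for knockout and bars for the mean and SD of 3 libraries. Hps1 and Hps4 are above wild type at CT1 and below it at CT10 in knockout, and 1 knockout library of CT1 stands at 139 CPM for Mlph.

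Mature melanosomes are held on actin by Rab27a with an effector and a myosin, melanophilin and myosin Va in skin melanocytes and the Myrip protein with myosin VIIa in the RPE. Rab27a (chromosome 9, 73044854 to 73097629, plus strand) was at 321, 359 and 319.8 CPM in wild type and 491, 386 and 387 CPM in knockout at CT10, without overlap (log2 difference 0.34, SE 0.22). A processed pseudogene on the same strand covers 3.84% of its exon length. Myrip had log2 differences from -0.27 to 0.38, and Sytl2, another Rab27 effector gene, from -0.42 to 0.38, with no unadjusted p under 0.05 for genotype in either.

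Mlph (chromosome 1, 90915085 to 90951142, plus strand), the melanophilin gene, lies 0.465 megabases from Per2, one of the altered genes, and the part of this position in its values was not tested. Knockout libraries were at 38.7, 26.1 and 37.9 CPM and wild-type libraries at 60.3, 52.5 and 61.5 CPM at CT19, without overlap. At CT1 knockout was at 64.8, 67.3 and 139 CPM and wild type at 35.03, 85.8 and 70.0 CPM, which overlap. Averaged over the times the log2 difference was -0.29 (SE 0.17, adjusted p = 0.802 in edgeR with Benjamini-Hochberg adjustment) and 0.11 with the melanocyte score in the fit. Within knockout the log2 range over the times was 1.40 (adjusted p = 0.283 in the same test), and 0.98 without CT1 replicate 5. The window before its start holds the E-box, in capitals, with its first base 48 bases before the start, at chr1:90914850-90915099 on the plus strand of GRCm38.p6 from RefSeq.
Mlph: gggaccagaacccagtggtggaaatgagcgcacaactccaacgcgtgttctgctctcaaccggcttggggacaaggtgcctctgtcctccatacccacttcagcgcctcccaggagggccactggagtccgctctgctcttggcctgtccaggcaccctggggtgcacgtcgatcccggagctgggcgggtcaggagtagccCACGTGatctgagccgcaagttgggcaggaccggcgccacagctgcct

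Myo5a, the myosin Va heavy chain gene (chromosome 9, 75071015 to 75223688, plus strand), was at 116.2, 110.0 and 151 CPM in knockout and 73.1, 117.5 and 88.0 CPM in wild type at CT1, which overlap. The log2 difference was 0.44 (SE 0.19, adjusted p = 0.199 in edgeR with Benjamini-Hochberg adjustment). Within knockout its log2 range over the times was 0.79 (adjusted p = 0.278 in the same test), with 86.4, 66.9 and 63.9 CPM at CT19. The range was 0.67 without CT1 replicate 5. Mreg, which encodes melanoregulin, a regulator of melanosome movement, and lies 19.2 megabases from Per2 on the minus strand of chromosome 1 (72159442 to 72212307), had 13.3, 29.9 and 17.2 CPM in wild type and 30.3, 84.0 and 27.5 CPM in knockout at CT22, which overlap. Its log2 difference averaged over the times was 0.46 (SE 0.20, adjusted p = 0.613 in the same test), 0.02 with the melanocyte score in the fit and 0.27 without knockout CT22 replicate 2, the library at 84.0 CPM.

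A further 52 genes of melanosome sorting, ion balance and movement were listed outside the members, and all were tested. In edgeR, 0 of them passed in any genotype difference or time comparison, and those with an unadjusted p under 0.05 were counted beside the share of all tested genes. They were 4 in the average (7.69% beside 7.07%), 3 at CT19 (5.77% beside 3.47%), 5 at CT22 (9.62% beside 12.7%), 16 at CT1 (30.8% beside 19.5%) and 12 at CT10 (23.1% beside 17.9%). For time they were 14 in wild type (26.9% beside 19.3%) and 9 in knockout (17.3% beside 11.7%). In the interaction of genotype and time 3 of 52 passed, beside 4.62% of all tested genes, and 19 had an unadjusted p under 0.05 (36.5% beside 22.3%). The 3 were Ap3s1, an AP-3 subunit gene, with a log2 range of 1.46, Stx3, a syntaxin gene, with 1.99, and Myo7a, the myosin VIIa gene, with 1.48 (adjusted p = 0.0290, 0.0358 and 0.0352 in edgeR with Benjamini-Hochberg adjustment).

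Ap3s1 was at 15.7, 17.4 and 14.2 CPM in wild type and 30.4, 28.2 and 26.8 CPM in knockout at CT10, without overlap. At CT19 it was at 26.0, 25.0 and 47.4 CPM in wild type and 20.4, 18.8 and 25.2 CPM in knockout, and the adjusted p of the range was 0.0897 with the rod score in the fit. Myo7a was at 228, 191 and 283 CPM in wild type and 306, 375 and 439 CPM in knockout at CT1, and at 349, 286 and 363 CPM and 219, 253 and 199 CPM at CT10. Neither time overlapped, and the order at CT1 and CT10 was that of Hps1 and Hps4. With the rod score in the fit the range of Myo7a was 0.91 and that of Stx3, which rods also express, 0.54 (adjusted p = 0.426 and 0.311 in edgeR with Benjamini-Hochberg adjustment). These genes passed in 13, 13 and 10 of the 24 fits without 1 library for Ap3s1, Myo7a and Stx3.

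Choroidal melanocytes share these genes, so 11 markers of melanocytes and their lineage were read in every library. None of the 11 was at 0 counts in any library. Sox10 made up most of their sum, at 156 to 352 CPM per library, while Kit averaged 40.6, Ednrb 43.1, Pax3 4.06 and Mc1r 3.32 CPM. In the 3 libraries with the highest rod marker sums St8sia1 was at 43.9 to 66.9 CPM. It was at 15.1 and 15.3 CPM in wild-type CT22 replicates 1 and 6, which had the lowest rod sums. Sox10 was at its lowest, 156 CPM, in knockout CT22 replicate 2, which had the highest rod sum. The part of rod RNA in this list was not tested. At CT19 the markers summed to 469 to 662 CPM in wild-type libraries against 324 to 439 CPM in the knockout, and at CT22 to 514 to 577 against 299 to 492 CPM. At CT1 the sums were 447 to 479 and 449.7 to 555 CPM, and at CT10 435 to 443 and 389 to 420 CPM. Knockout sums were therefore below wild type without overlap at CT19, CT22 and CT10. The markers' mean log2(CPM + 1) overlapped at CT19, at 3.83 to 4.70 in wild type and 3.65 to 3.90 in knockout. Pmel, Mlana and Dct were also lower in knockout at CT19, but their log2 differences at CT22 were 0.35, -0.22 and 0.19. Mitf and Tpcn2 were lower at CT22, with log2 differences of -0.37 and 0.21 at CT19. At CT10 the order of Tyr, Tyrp1 and Pmel was opposite to that of the sum. The 11 markers did not move together there, as 7 had a log2 difference below 0. At an unadjusted p under 0.05, 2 were higher and 3 lower in knockout, beside 17.9% of all tested genes. Kit was higher in knockout without overlap, at 43.8, 35.4 and 35.3 CPM against 25.4, 30.3 and 14.2 CPM in wild type.

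The median log2 difference of the 11 melanocyte markers was -0.47 at CT19, -0.47 at CT22, -0.11 at CT1 and -0.35 at CT10, and 1 marker, Cdh19, fell in knockout in the average over times (log2 difference -1.52, adjusted p = 0.0114 in edgeR with Benjamini-Hochberg adjustment). With the mean marker level as a covariate the CT19 difference was -0.65 for Mlana, -1.35 for Pmel and -0.72 for Dct, and the CT10 difference of Tyr was 0.90. The part of choroidal melanocytes in the members' levels was not tested otherwise.

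The mean log2(CPM + 1) over the 34 members gives 1 value per library. At CT19 it was 5.76, 5.87 and 5.93 in wild type and 5.26, 5.62 and 5.79 in knockout, which overlap. At CT1 it was 5.57, 5.69 and 5.71 in wild type and 5.75, 5.77 and 5.81 in knockout, without overlap. The group means went down in wild type from 5.86 at CT19 to 5.77, 5.65 and 5.64 at CT22, CT1 and CT10. In knockout they were 5.55, 5.63, 5.78 and 5.72. The knockout minus wild type difference was -0.30, -0.14, 0.12 and 0.08 in the order CT19, CT22, CT1 and CT10, beside a pooled SD of 0.15 within groups. Without the pooled libraries the CT19 difference was -0.15, and without knockout replicate 3and5 alone -0.16. The CT22 difference was -0.03 without knockout replicate 2, -0.09 without wild-type replicate 1 and -0.23 without knockout replicate 3. The CT10 difference depended on the scaling, which was estimated again in each fit. It was -0.01 with RLE scaling in edgeR. Over the 24 fits without 1 library it ran from -0.01 to 0.09 with a median of 0.03. It was of the other sign in 2 of them, without wild-type CT10 replicate 4 and without knockout CT10 replicate 2. No test was run on this mean, because the members were chosen with earlier results known.

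**Figure D4:**
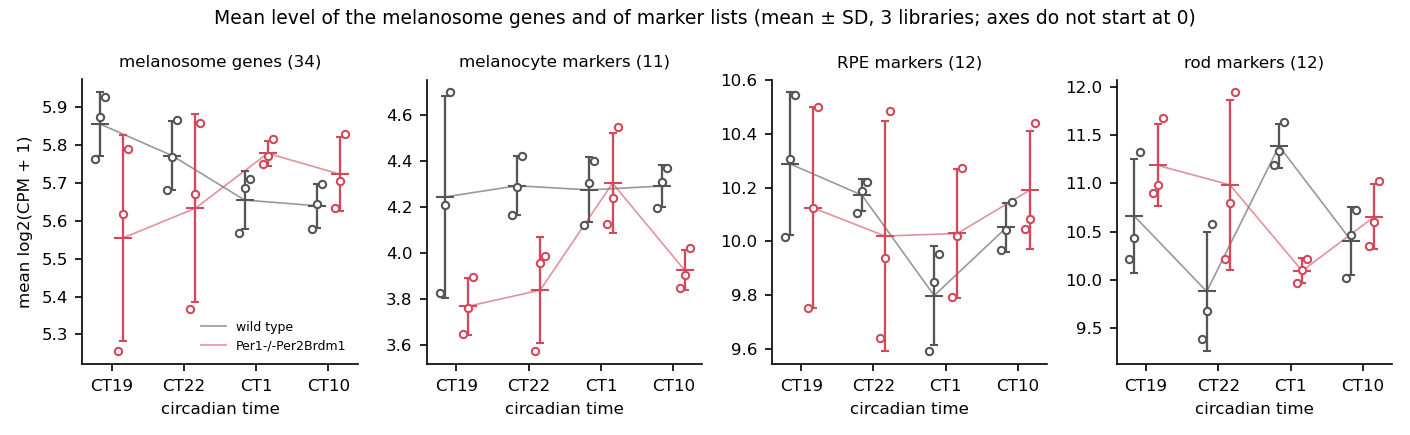
Mean log2(CPM + 1) (y axis, not starting at 0) over the 34 members and over the melanocyte, RPE and rod marker lists in each library at the 4 circadian times (x axis), with grey for wild type, red for knockout and bars for mean and SD of 3 libraries. The members' mean is above in wild type at CT19 and above in knockout at CT1, the melanocyte markers are below wild type at CT22 and CT10 in all knockout libraries, and the rod markers are above in all wild-type libraries at CT1.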

How the data were processed

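Counts were deposited by the authors as whole-number, unnormalized read counts per gene for 24 libraries. HTSeq 0.11, HISAT2 2.1.0, Trimmomatic 0.32 and Cufflinks are named with build GRCm38.p6, per the submitters' processing notes. Their roles, the annotation release and strand setting are not given in the sources used here, so counts of overlapping genes are uncertain. Symbols, coordinates and exon lengths came from GENCODE M21 (GRCm38), with 67 identifiers unmatched. 0 columns lacked a sample.

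Genes were kept by filterByExpr (minimum count 10) and scaled by TMM in edgeR 4.0.16 (R 4.3.3, limma 3.58.1). A quasi-likelihood model with 8 group means (16 residual degrees of freedom) gave 8 two-sided contrasts. Each was adjusted over all 20275 genes at 0.05. For comparisons over the 4 times the value is the range of log2 values. CPM used TMM factors, with a pseudocount of 1 for means of log2 values. DESeq2 1.42.0, RLE scaling, other filters, a replicate block, marker scores as covariates and left-out libraries were alternatives. The edgeR fit was also run on simulated independent counts with a genotype shift that was the same at all times. That run does not cover differences in cell content between libraries.

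Members and lists were chosen with earlier results of these data known. Genes named with values were the members that passed, the 3 with the smallest p per contrast, the highest per length of each role, those within 20 megabases of Per1 or Per2, and, for completeness of a count, others chosen after their values were seen. Depth limits only the genes with few counts. The score fits with the RPE markers and without the 3 libraries of highest rod marker sum were added after the data were seen.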

Additional observations from a re-analysis of the deposited data

Results flagged for a closer look

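The genotype difference of Pmel varied over the 4 times, with a log2 range of 2.24 by the interaction test, from -1.50 at CT19 to 0.74 at CT10. Among the other melanosome genes the same held for Ap3s1, with a range of 1.46, Stx3, with 1.99, and Myo7a, with 1.48. The range of Stx3 was 0.54 and that of Myo7a 0.91 with the rod marker score in the fit, while those of Pmel and Ap3s1 were 2.24 and 1.45. Each of the 4 had an adjusted p over 0.05 in that fit (edgeR with Benjamini-Hochberg adjustment). Sums of rod markers differed between genotypes in opposite directions at CT22 and CT1.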

How the results depend on the processing

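Of 984 alternative values of 29 named results, 981 kept their sign. The 3 that did not were Slc7a11 at CT22, 1.83 with the replicate block and 1.97 without wild-type CT22 replicate 6 (-5.31 to 1.97 over fits without 1 library), and the averaged difference of Mlph, 0.11 with the melanocyte score. Same-numbered libraries of different groups correlated with a median r of 0.0108 over 30 pairs (-0.213 to 0.422). Differently numbered ones had a median r of -0.0147 over 222 pairs (-0.461 to 0.406). Whether the numbers pair libraries cannot be decided from this, as pools carry labels of their own. The replicate block, with fewer residual degrees of freedom than the main fit, left 0 members in the interaction of genotype and time. Without a filter on low counts (32680 genes tested) 1 member passed in the average, beside 1.16% of all genes, 3 at CT19 (0.358%), 1 at CT22 (2.47%), 3 at CT10 (3.06%), 4 and 6 over time in wild type and knockout (6.61% and 3.83%), and 6 in the interaction (8.22%). DESeq2 gave 2 at CT19 (0.19%), 2 at CT10 (5.21%), 2 and 2 over time in wild type and knockout (8.05% and 1.87%), and 5 in the interaction (16.9%). At CT10 1 member, Tyr, passed with the rod (0.572%) and 1 with the RPE score (0.602%), which also gave 3 over time in wild type (2.71%), Dct, Oca2 and Tyrp1. In the interaction 3 passed among genes of at least 5 CPM (11.5%), and 0 passed without the 5 pooled libraries, with the melanocyte score, with the rod score, or without the 3 libraries of highest rod sums. Leaving out 1 library gave 0 to 1 over time in wild type and 0 to 4 in the interaction. The CT19 difference of the members' mean was -0.15 without the pooled libraries. All tested genes passing in the interaction ranged from 20 to 1688 over fits without 1 library, beside 937. The cause was not tested.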

Other observations

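Other cell types of the choroid were read in the same libraries. The median log2 difference (knockout minus wild type) of 7 Schwann cell markers was -0.75 averaged over the times, with -0.41 at CT19, -1.06 at CT22, 0.05 at CT1 and -0.58 at CT10. That of 9 endothelial markers was -0.49 at CT19 and -0.53 at CT22, where all 9 were below 0 at both times, and 0.35 at CT1 and 0.23 at CT10. Of 11 fibroblast and mural markers, all 11 were below 0 in the average, with a median of -0.19. All 11 were also below 0 at CT22, with a median of -0.62. At that time 5 had an unadjusted p under 0.05, beside 12.7% of all tested genes. At CT1 0 of the 11 were below 0, with a median of 0.32. The 8 immune cell markers had a median of 0.36 in the average and 0.62 at CT10.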
